A study of Homo sapiens with 17 samples.

Results

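The 32 genes described here encode parts of the lysosome and were taken by their listed symbols from a table of 23368 genes. They fall into 6 lysosomal membrane proteins, 8 proteases with the protective protein CTSA among them, 10 glycosidases with 1 sulfatase among them, 5 lipid hydrolases and activators, and 3 components of the proton pump. LAMP1, the membrane glycoprotein most often used to mark lysosomes, is shown apart. The lysosome is an acidic compartment in which hydrolases break down proteins, glycans and lipids delivered by endocytosis and autophagy. A vacuolar ATPase pumps protons into it, heavily glycosylated membrane proteins line it, and most of its soluble enzymes are sorted there through mannose 6-phosphate. Transcription factors of the MiT/TFE family such as TFEB bind short E-box elements near the starts of many lysosomal genes.

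The RNA was poly(A) RNA of HEK293T, a human embryonic kidney cell line, measured by acRIP-seq, which sequences RNA pulled down with an antibody against N4-acetylcytidine (ac4C), a modified base that the acetyltransferase NAT10 writes. Cells labelled WT, for which the labels name no control siRNA, were set against cells in which an siRNA lowered TDP43 (siTDP43), an RNA-binding protein whose gene is TARDBP. For both, 3 kinds of library were made: unselected input RNA, RNA bound by the anti-ac4C antibody (IP) and RNA bound by a control immunoglobulin (IgG). Each group had 3 libraries except WT IgG, which had 2, and nothing in the labels says that the libraries came from separate cultures, so p-values measure the spread between libraries, which may be technical. Transfection, loss of TDP43 and batch cannot be told apart between the genotypes.

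Total counts ran from 3013989 in a siTDP43 IgG library to 36583436 in a WT input library. The siRNA target TARDBP had input levels of 153 ± 3.87 CPM (SD, n = 3) in WT and 102 ± 3.67 CPM in siTDP43, a log2 change of -0.57 (edgeR adjusted p 6.55e-13). CPM here means the count scaled to a common library size with TMM factors of all 17 libraries. Folds and log2 changes come from the fit of each comparison, which has its own TMM factors. Ratios of the printed CPM can therefore differ from the printed folds. None of the 6 HEK293T marker genes was at 3 counts or fewer in every library of an input group, although PAX2 had at most 4 counts in any siTDP43 input. Their summed level was 1218 to 1251 CPM in WT input and 591 to 635 CPM in siTDP43 input. VIM was the largest part, at 773 to 799 CPM in WT input and 253.5 to 270.7 CPM in siTDP43 input. Of the 5 markers tested, 1 (NEFL) was higher and 4 lower in siTDP43 input, where 38.6% of all genes were higher and 40.6% lower. Leukocyte markers, chosen because macrophages are rich in lysosomes, summed to at most 13.2 CPM in any library, and their defining gene PTPRC was at 0 in all WT and siTDP43 inputs. Fibroblast markers summed to at most 16.3 CPM.

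LAMP1 (hg19 chr13:113951469-113977741, plus strand) was among the lowest members in the inputs and stood higher in all 4 pull-down groups, ranking from 8 (WT IP) to 20 (siTDP43 IP) of the 32 members per length of exon. The study also followed it by qPCR, and a primer pair is printed to show a stretch of LAMP1 that was read there, since the counts here cover all exons together. The pair lies in the coding part of exon 4 at chr13:113965079-113965162 on GRCh37, the same assembly as hg19, with the forward primer on the plus strand and the reverse primer on the minus strand.
hLAMP1-F: cagatgtgttagtggcaccca
hLAMP1-R: ttggaaaggtacgcctggatg

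In the WT inputs LAMP1 stood at 9.16, 9.44 and 8.98 CPM, and in the siTDP43 inputs at 1.83, 1.03 and 0.78 CPM, from 22 to 58 counts per library. Every siTDP43 input lay far below every WT input, and the log2 change was -2.89 (SE 0.21, adjusted p 1.03e-13). In bulk RNA, a smaller share of cells with LAMP1 RNA and less of it per cell cannot be told apart. Per length of exon it ranked 29 of 32 members in WT input, with 3.62 ± 0.0914 RPKM (CPM divided by the exon length in kilobases), and 31 of 32 in siTDP43 input, with 0.478 ± 0.216 RPKM.

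In the pull-downs LAMP1 was 92.8, 100 and 91.9 CPM in WT IP, and 31.6 and 40.6 CPM in WT IgG. It was 18.1, 22.3 and 20.1 CPM in siTDP43 IP, and 30.8, 38.9 and 31 CPM in siTDP43 IgG. The order of IP and IgG thus turned over between the genotypes: all WT IP libraries were above all WT IgG libraries, and all siTDP43 IP libraries were below all siTDP43 IgG libraries. Over input, the IP level was 10.4-fold higher in WT (log2 3.37, SE 0.090, adjusted p 1.68e-20) and 18.1-fold higher in siTDP43 (log2 4.18, SE 0.26, adjusted p 1.82e-12).

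The control IgG was itself above input, by a log2 difference of 2.00 in WT (adjusted p 2.51e-14) and 4.98 in siTDP43 (adjusted p 1.64e-13). IP over IgG was 1.38 in WT (SE 0.10, adjusted p 1.09e-11) and -0.81 in siTDP43 (SE 0.23, adjusted p 0.00332), the second of which did not pass the required 2-fold. The difference between the genotypes in IP over IgG was -2.13 on the log2 scale (SE 0.23, adjusted p 1.64e-10). The difference in IP over input was 0.65 (SE 0.24, adjusted p 0.0182), and this call was not stable: without siTDP43 input replicate 3 it was 0.40 with an adjusted p of 0.153, without replicate 2 it was 0.54 with 0.0708, with total count scaling it was 0.35 with 0.207, and with limma on log2(FPKM + 1) it was -0.73 with 0.00189. With a GC trend removed from each library, the WT IP over IgG difference of LAMP1 was 0.58, under 2-fold, and the siTDP43 one was -1.25, past 2-fold.

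**Figure D1:**
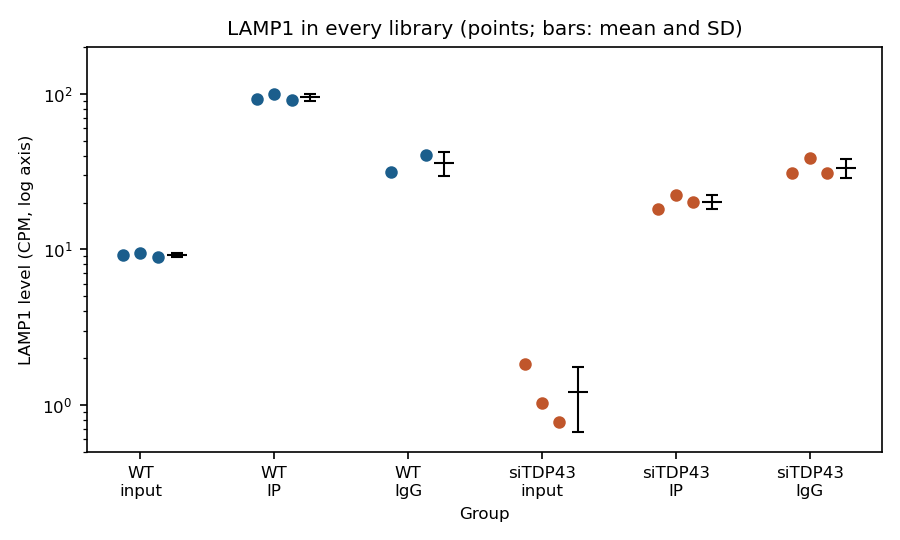
LAMP1 level in CPM (log axis) in each of the 17 libraries by group, as points, with the group mean and SD beside them. WT IP libraries lie at 91.9 to 100 CPM above WT IgG at 31.6 to 40.6, whereas siTDP43 IP libraries lie at 18.1 to 22.3 CPM below siTDP43 IgG at 30.8 to 38.9.

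The other members spanned a wide range of levels. Per length, CD63, a tetraspanin of lysosomes and secretory vesicles, was the highest member in WT input with 326 ± 2.85 RPKM, followed by PSAP, the precursor of the saposins that present lipids to hydrolases, with 234 ± 1.73 RPKM. GLA, alpha-galactosidase, came next in WT input with 211 ± 2.52 RPKM and stood above PSAP in siTDP43 input, at 376 ± 3.87 against 219 ± 11.3 RPKM. The low end held SMPD1, acid sphingomyelinase, with 0.819 ± 0.104 RPKM in WT input, and CTSZ, cathepsin Z, which had at most 8 counts in any library and was not tested. All other 31 members passed the low-count filter in every comparison. Summed over the 32 members, WT input reached 3512 ± 7.45 CPM (SD, n = 3) and siTDP43 input 4410 ± 35.9 CPM, and the sums were lower in the 4 pull-down groups, where the means lay between 2100 and 2521 CPM.

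**Figure D2:**
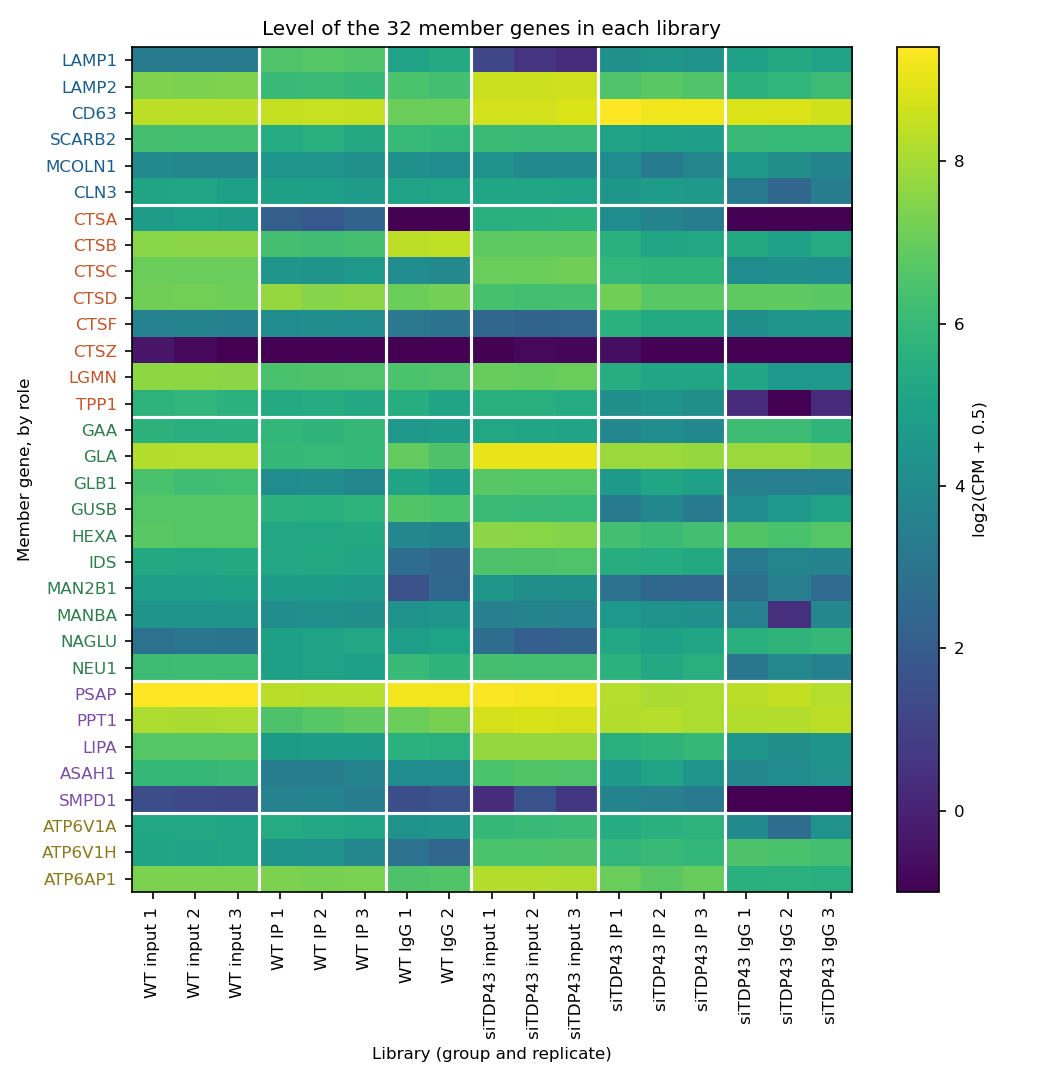
Level of the 32 members as log2(CPM + 0.5) in each of the 17 libraries, with rows ordered and coloured by role (membrane proteins, proteases, glycosidases and sulfatase, lipid hydrolases, proton pump) and white lines between roles and groups. CTSZ is near the bottom of the scale throughout, CTSA is dark in all IgG libraries and TPP1 and SMPD1 in those of siTDP43.

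The input comparison asked which lysosomal transcripts differed in abundance after TDP43 knockdown. Of 31 members tested, 15 were higher and 13 lower in siTDP43 at an adjusted p under 0.05, where 38.6% of all 14036 genes tested were higher and 40.6% lower. The members' shares were therefore near those of all genes, and their median log2 change was 0.053 against -0.049 over all genes. With the GC trend removed, 18 members were higher and 9 lower.

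All 3 proton pump members were higher in siTDP43. ATP6V1H, a regulatory subunit of the cytosolic part of the pump, had 33.5, 32.2 and 35.2 CPM in WT input and 86.6, 86.8 and 91.1 CPM in siTDP43 input, so that the groups were well apart. Its log2 change of 1.40 (SE 0.057, adjusted p 4.21e-20) was the highest among the members. ATP6V1A, the catalytic subunit, rose by 0.86 and ATP6AP1, an accessory subunit of the membrane part, by 0.85, and all 3 passed under every alternative that kept all libraries. Among 15 other vacuolar ATPase subunits, 12 were higher and 2 lower, with a median of 0.59, where 38.6% of all genes were higher and 40.6% lower. For these 15 no split with the GC trend removed is given.

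Among membrane proteins, LAMP2, the second major lysosomal membrane glycoprotein, was 167, 165 and 167 CPM in WT input and 380, 381 and 408 CPM in siTDP43 input. It rose by 1.23 (SE 0.040, adjusted p 1.36e-22), the opposite direction to LAMP1. CD63 had 332, 335 and 329 CPM in WT and 413, 416 and 449 CPM in siTDP43, a log2 rise of 0.37 with separate groups. SCARB2, the receptor that carries glucocerebrosidase to lysosomes, had 80.2, 77.9 and 77.3 CPM in WT and 68.1, 64.3 and 66.1 CPM in siTDP43, a smaller fall by 0.24 (adjusted p 9.69e-05). MCOLN1, a lysosomal calcium channel, rose by 0.24, although its groups overlapped, and CLN3, a membrane protein lost in juvenile Batten disease, did not pass the test.

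Of the 7 proteases tested, 5 fell and 1 rose, a split of few genes to be read beside the 40.6% of all genes that were lower and the 38.6% that were higher. CTSF, cathepsin F, had 11.7, 12 and 11.3 CPM in WT input and 4.86, 4.51 and 4.75 CPM in siTDP43 input, a log2 change of -1.30 (SE 0.13, adjusted p 1.87e-10). CTSD, the main aspartic protease of lysosomes, had 143, 144 and 137 CPM in WT and 82.7, 74.9 and 77.4 CPM in siTDP43, a fall by 0.85 (adjusted p 2.08e-16). CTSB, a cysteine protease, had 186, 191 and 191 CPM in WT and 113, 112 and 112 CPM in siTDP43, a fall by 0.74 (adjusted p 1.87e-16). In each of these the siTDP43 libraries were all below the WT ones. LGMN, legumain, and TPP1, tripeptidyl peptidase, also fell, and CTSA, which protects beta-galactosidase and neuraminidase in a complex, rose by 0.83. CTSA shares 511 exon bases with the opposite-strand genes NEURL2 and PLTP, and Smart-seq2 libraries, as used here, do not keep strand, so reads of these genes cannot be told apart there.

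The glycosidases and the sulfatase split evenly, 5 higher and 5 lower, where 38.6% of all genes were higher and 40.6% lower. IDS, the sulfatase that starts the breakdown of heparan and dermatan sulfate, had 39.4, 36.6 and 39.9 CPM in WT input and 89.4, 88.8 and 93.8 CPM in siTDP43 input, a rise of 1.24 (SE 0.056, adjusted p 5.34e-19). HEXA, a beta-hexosaminidase subunit, rose by 0.87 and GLA by 0.84. GAA, the enzyme that degrades lysosomal glycogen, had 51.1, 46.1 and 47.9 CPM in WT and 36.6, 33.8 and 32.8 CPM in siTDP43, a log2 change of -0.48 (adjusted p 1.01e-07). Its groups did not overlap.

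Of the lipid hydrolases, LIPA, the acid lipase for cholesteryl esters, rose by 1.10, PPT1, which removes palmitate from proteins, by 0.65 and ASAH1, acid ceramidase, by 0.59. PSAP had 659, 660 and 668 CPM in WT and 658, 608 and 599 CPM in siTDP43, a log2 change of -0.086 with an adjusted p of 0.0431 that was above the threshold with DESeq2 (0.0922), its size factors (0.0923), no low-count filter (0.0561) and all 17 libraries in 1 fit (0.162). Removing the GC trend turned the signs of CTSD to 0.067 (adjusted p 0.122), of PSAP to 0.074 (0.028) and of GAA to 0.53 (1.80e-09), so the direction of these 3 depends on that choice.

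**Figure D3:**
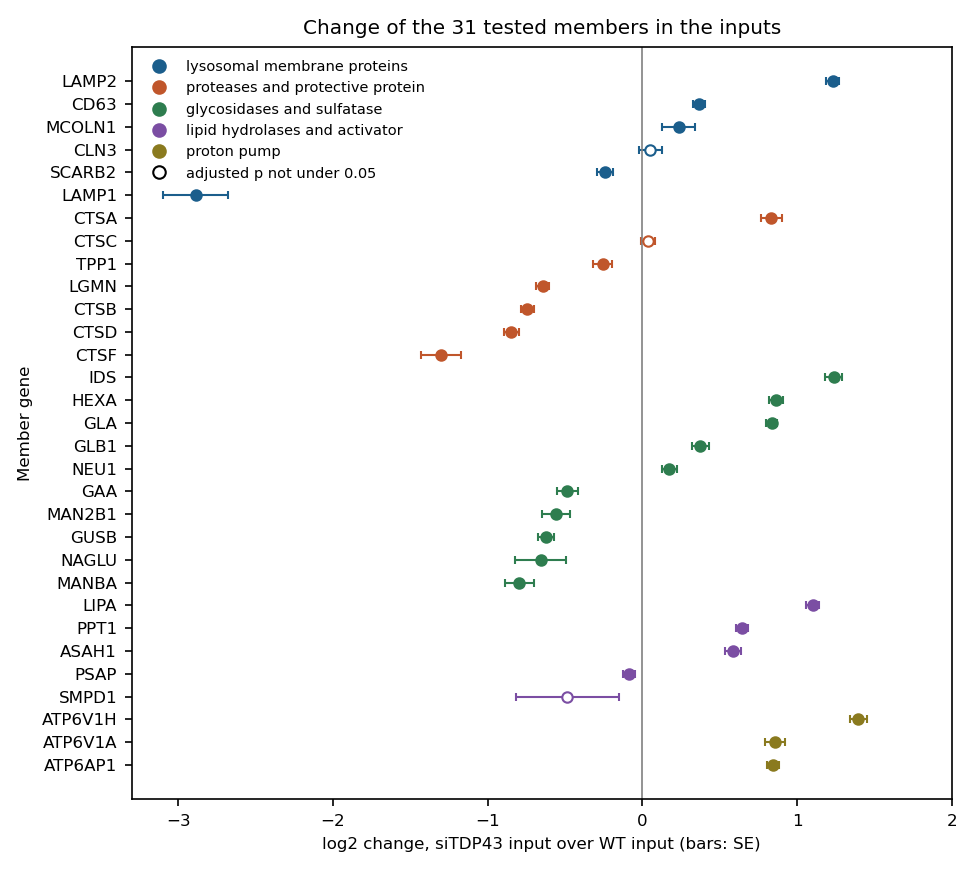
The log2 change of each of the 31 tested members between siTDP43 input and WT input, with SE bars, ordered within role and coloured by role, where open points did not reach an adjusted p under 0.05. The 3 proton pump members lie at 0.85 to 1.40, while LAMP1 stands alone at -2.89.

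Beyond the members, 101 other genes of lysosomal function were counted. In the inputs 53 of the 98 tested were higher and 26 lower, with a median of 0.26, against 38.6% higher, 40.6% lower and a median of -0.049 over all genes. Counts of these lists are from the edgeR fit alone, and splits with the GC trend removed are not given for them. The hydrolases split 12 higher to 6 lower of 27, membrane proteins 10 to 8 of 23, the mannose 6-phosphate and sorting genes 8 to 4 of 13, and the MiT/TFE and mTORC1 regulators 11 to 6 of 20. The largest changes that the naming rule gave were those of NAAA, an acid amidase, at 6.20, of TFE3, a MiT/TFE transcription factor, at -2.70, and of ABCA2, a lysosomal transporter, at -2.57, all with an adjusted p of 1.52e-13 or lower.

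The E-box CACGTG, to which MiT/TFE factors bind, was searched on both strands from 250 bases before to 50 bases after the annotated start of each gene (RefSeq, GRCh38.p14). It was present in 9 of the 22 members with a promoter sequence (40.9%) and in 8.78% of 27305 promoters. The longer palindrome TCACGTGA, each copy of which also counts as CACGTG, was in 5 of 22 members (22.7%) against 1.18% of promoters. The windows below show it in capitals within 30 bases on the strand of each gene. They are printed for the 5 members that carry it.
LAMP1, chr13:113297199-113297228, plus strand: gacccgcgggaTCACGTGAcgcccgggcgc
LAMP1, chr13:113297226-113297255, plus strand: cgcggcgcagcTCACGTGAcaagcgctgcc
MCOLN1, chr19:7522571-7522600, plus strand: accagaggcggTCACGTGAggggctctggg
MCOLN1, chr19:7522598-7522627, plus strand: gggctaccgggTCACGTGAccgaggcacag
GAA, chr17:80101493-80101522, plus strand: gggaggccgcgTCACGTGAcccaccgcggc
GAA, chr17:80101538-80101567, plus strand: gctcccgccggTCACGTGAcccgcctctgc
CLN3, chr16:28492058-28492087, minus strand: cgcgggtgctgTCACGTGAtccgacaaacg
CTSA, chr20:45891298-45891327, plus strand: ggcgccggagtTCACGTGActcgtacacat
Members with these sequences did not share a direction in the inputs. Of the 9 with CACGTG, 4 were higher, 4 lower and 1 not called. Of the 5 with TCACGTGA, 2 were higher, 2 lower and 1 not called. Over all genes tested in the inputs, 38.6% were higher and 40.6% lower. PSAP, CTSB, ASAH1, ATP6V1A, LAMP2, ATP6V1H, NAGLU, MANBA, LGMN and HEXA had no entry.

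The WT pull-down was compared with its input to ask which members were enriched with the antibody. In WT IP, 3 members were more than 2-fold higher than in input and 13 more than 2-fold lower, against 30.2% and 27.3% of 14751 genes, and the members' median log2 difference was -0.88 against 0.013 over all genes. Beside LAMP1, the members higher in IP were SMPD1 and NAGLU, an enzyme of heparan sulfate breakdown. SMPD1 had 11.7, 12 and 10 CPM in IP and 2.31, 1.93 and 1.82 CPM in input (log2 2.49, SE 0.19, adjusted p 1.14e-11). NAGLU had 29.7, 32.1 and 37.6 CPM in IP and 6.94, 8.01 and 7.67 CPM in input (log2 2.14, SE 0.12, adjusted p 1.57e-14). All IP libraries were above all inputs for both, but NAGLU was at 0.75, under 2-fold, with the GC trend removed.

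At the other end stood CTSA, CTSC and ASAH1. CTSA had 3.97, 3.14 and 4.43 CPM in IP and 26.8, 28.5 and 26.1 CPM in input, a log2 difference of -2.81. CTSC, a dipeptidyl peptidase that activates serine proteases, had 21, 20.3 and 24.3 CPM in IP and 135, 130 and 130 CPM in input, a difference of -2.58. ASAH1 had 9.75, 10.1 and 11.9 CPM in IP and 59.6, 60.2 and 63.8 CPM in input, a difference of -2.52. The levels in IP were 7.02-fold, 5.99-fold and 5.75-fold lower, with no overlap between libraries.

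LAMP2, with 65.9, 67.2 and 60.5 CPM in WT IP, had a log2 difference from input of -1.36 (adjusted p 5.20e-16). CTSB, with 79.5, 73.7 and 81.1 CPM, had a difference of -1.27, and PSAP, with 318, 305 and 302 CPM, one of -1.10. These passed 2-fold, although LAMP2 was at -0.40 with the GC trend removed and PSAP at -0.99 with total count scaling or limma. SCARB2 (-0.88), CD63 (0.14), GAA (0.26) and CTSD (0.47) had IP levels within 2-fold of input, and the last 3 turned negative with the GC trend removed.

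Against IgG, 10 members were higher in WT IP and 1 lower, with backgrounds of 35.2% higher and 17.8% lower. The median over members was 0.13 and over all genes 0.29. With the GC trend removed 5 members were higher and 9 lower, so this split depends on that choice.

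IDS had 36.4, 38.2 and 35 CPM in WT IP and 6.01 and 4.94 CPM in WT IgG, a log2 difference of 2.71 (SE 0.14, adjusted p 2.65e-14). MAN2B1, a lysosomal alpha-mannosidase, had 25.9, 25.6 and 24.4 CPM in IP and 2.52 and 5.14 CPM in IgG, also 2.71 (SE 0.19, adjusted p 7.27e-12). SMPD1, with 2.33 and 2.68 CPM in IgG, had 2.15 (SE 0.26, adjusted p 5.79e-08). In these 3 the IgG libraries were far below the IP libraries, and for IDS and MAN2B1 the IP level was close to that of input.

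CTSA had no count in either WT IgG library and was at least 12.8-fold higher in IP, computed against 3 counts per library. CD63, with 135 and 133 CPM in IgG against 362, 370 and 360 CPM in IP, had a log2 difference of 1.43 (0.65 with the GC trend removed), and GAA, with 23.1 and 26.6 CPM against 58.9, 53.7 and 60.6 CPM, one of 1.20. GAA was at -0.070 with the GC trend removed. The other members higher in IP were HEXA, ATP6V1H and CTSF, with log2 differences of 1.04 to 1.505. NAGLU, high in IP over input, differed from IgG by 0.13 with an adjusted p of 0.358. The member lower in IP was CTSB, at 334 and 339 CPM in IgG, a log2 difference of -2.12 (SE 0.060, adjusted p 3.86e-19). CTSB was also higher in WT IgG than in input, within 2-fold, with a log2 difference of 0.85.

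The WT IgG libraries differed from input as well. Set against input, 2 members were higher in IgG and 12 lower, where 24.4% of all genes were higher and 36.6% lower, with medians of -0.81 for members and -0.39 for all genes, and with the GC trend removed the split was 3 higher and 8 lower. NAGLU, at 27.9 and 31.9 CPM in IgG, was higher by a log2 difference of 2.01 (adjusted p 1.37e-12), and with LAMP1 made up the 2 higher members. CTSA was at least 90.4-fold lower in IgG than in input. CTSC, at 16.1 and 14.4 CPM, had a difference of -3.08, and HEXA, at 14 and 12.6 CPM against 105, 100 and 101 CPM in input, one of -2.92.

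In siTDP43 cells, 4 members were higher in IP than in input and 15 lower, against 26.8% and 25.4% of 12746 genes. The median over members was -0.999 and over all genes -0.092. The 4 were LAMP1, CTSF, SMPD1 and NAGLU. CTSF had 50.1, 40.5 and 40.2 CPM in siTDP43 IP against the 4.51 to 4.86 CPM of its input, a log2 difference of 3.37 (SE 0.16, adjusted p 1.52e-14). NAGLU had 37.5, 30.2 and 34.1 CPM in IP and 6.02, 3.76 and 4.43 CPM in input, a difference of 2.98 (SE 0.17, adjusted p 5.65e-13). SMPD1 had 12, 10.9 and 9.22 CPM in IP and 0.757, 2.54 and 1.1 CPM in input, a difference of 3.05 (SE 0.39, adjusted p 4.75e-07). All 3 had IP libraries above all inputs.

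The lowest members were GUSB, LIPA and LAMP2. GUSB, beta-glucuronidase, had 8.99, 14 and 9.47 CPM in siTDP43 IP and 67.8, 65.8 and 62.9 CPM in input, a log2 difference of -2.45 (SE 0.18, adjusted p 2.31e-11). LIPA had 46.9, 53.5 and 60.2 CPM in IP and 218, 216 and 218 CPM in input, a difference of -1.87. LAMP2 had 92.4, 107 and 92.6 CPM in IP, a difference of -1.84. CTSB, at 47.9, 35.2 and 36.4 CPM in IP, had -1.34, and GAA, at 14.2, 16.6 and 13.8 CPM, had -1.05, which was -0.97 among genes with a mean of at least 50 counts. SCARB2 and PSAP lay just under 2-fold lower and passed it under several alternatives.

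Against IgG, 13 members were higher in siTDP43 IP and 3 lower, with backgrounds of 34.0% and 15.0%, and medians of 0.43 for members and 0.33 for all genes. With total count scaling or limma 13 were higher and 1 lower, and with the GC trend removed 6 and 6. NEU1, a neuraminidase that removes sialic acid, had 49.3, 38.1 and 47.3 CPM in IP and 8.08, 14.6 and 11.4 CPM in IgG (log2 1.92, SE 0.19, adjusted p 8.14e-09). IDS had 44.4, 42.4 and 39.6 CPM in IP and 8.81, 12.9 and 12.1 CPM in IgG, a difference of 1.83. ATP6V1A had 43, 47.7 and 52.3 CPM in IP and 14.7, 6.07 and 18.5 CPM in IgG, a difference of 1.76 that was 0.82 with the GC trend removed.

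Several members were at or near 0 in siTDP43 IgG, the shallowest libraries. CTSA and SMPD1 had no count there, and TPP1 had at most 3 counts per library, so IP was at least 11.2-fold higher for CTSA, at least 9.52-fold higher for SMPD1 and at least 16.2-fold higher for TPP1. In the opposite direction, GAA had 72.3, 68.8 and 54.8 CPM in IgG, well above its IP (log2 -2.21, SE 0.15, adjusted p 5.79e-11). SCARB2 had 64.6, 62.3 and 61.6 CPM in IgG and 31.4, 29.8 and 27.9 CPM in IP, a difference of -1.15 that lay under 2-fold with total count scaling (-0.94) and limma (-0.84). GUSB, at 16.1, 22.7 and 31.3 CPM in IgG, was the third lower member, and CTSF, at 17.6, 21 and 22.4 CPM in IgG, was higher in IP by 1.03, just past 2-fold.

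Within siTDP43, IgG against input gave 4 members higher and 18 lower, against 24.7% and 41.0% of all genes, with medians of -1.25 (-1.11 with the members at the floor set to their bounds) and -0.58. NAGLU, at 47.7, 53.4 and 61.2 CPM in IgG, was 13.3-fold above its input (log2 3.73, adjusted p 2.89e-14). GAA had a log2 difference of 1.15 that was 0.60 with total count scaling, 0.55 with limma and 0.92 in 1 fit of all libraries. With the GC trend removed, GAA turned to -0.15. CTSA was at least 42.8-fold and TPP1 at least 39.1-fold lower in IgG, and LIPA, at 22.4, 17 and 20.6 CPM, had a difference of -3.21. Any ratio of IP over IgG in siTDP43 has these IgG levels as its denominator.

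**Figure D4:**
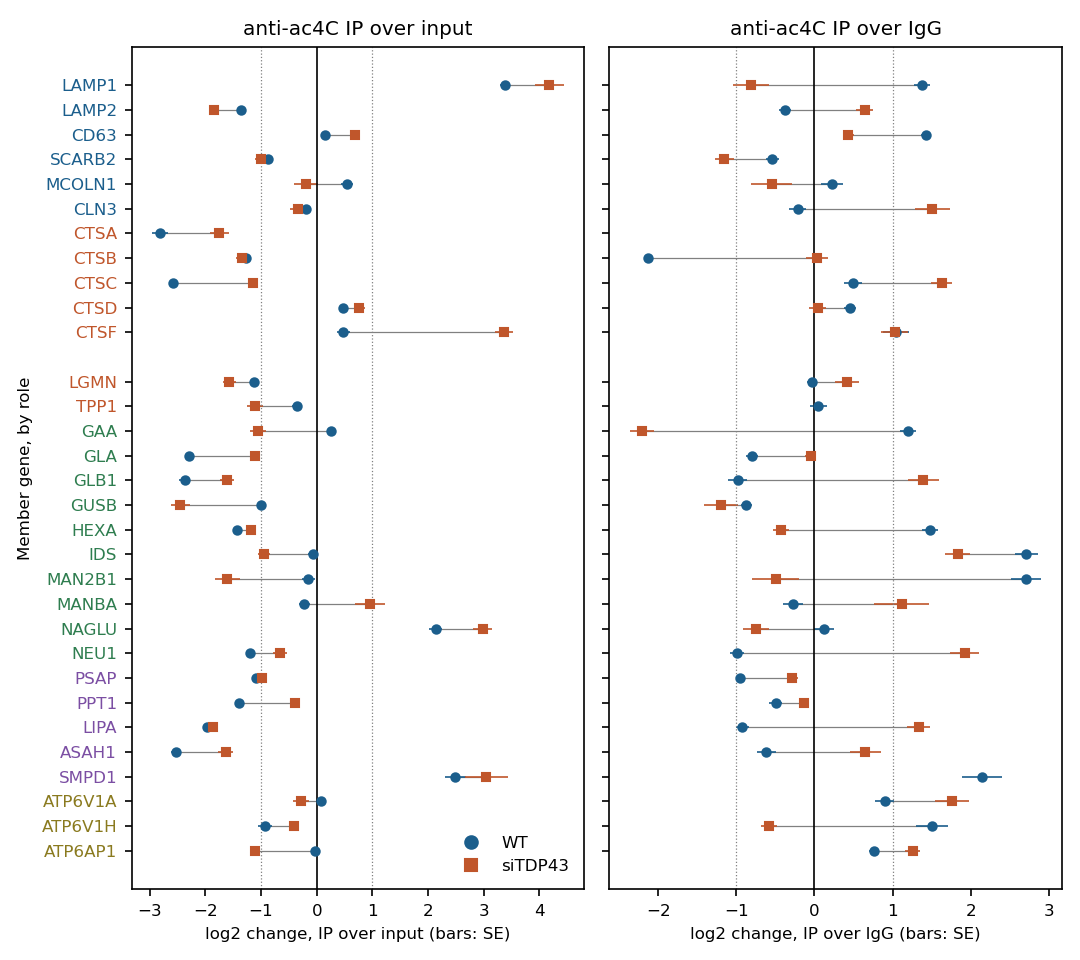
The log2 difference of IP over input (left) and of IP over IgG (right) for each tested member in WT (circles) and siTDP43 (squares), with SE bars, dotted lines at 2-fold and grey lines joining the genotypes. Points whose IgG was at the floor are left out (CTSA in both genotypes, TPP1 and SMPD1 in siTDP43). LAMP1 and GAA cross from right to left of 0 in the IgG panel, and NEU1 and GLB1 cross the other way.

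The change of IP over input between the genotypes was tested as an interaction over all 17 libraries. It was higher in siTDP43 for 13 members and lower for 10, where 31.5% of 15165 genes were higher and 36.3% lower, with medians of 0.12 and -0.19. This split depended on the scaling: total count scaling gave 7 higher and 15 lower, limma on log2(FPKM + 1) gave 4 and 16, and removing the GC trend gave 18 and 8. CTSF had the highest change, 2.74 (SE 0.20, adjusted p 1.31e-14), with WT IP at 16.4, 16.5 and 15.6 CPM against a WT input of 11.3 to 12 CPM. Its IP over IgG hardly differed, at 1.04 in WT and 1.03 in siTDP43. Mean CTSF levels in siTDP43 were lower in input (4.71 against 11.7 CPM) and higher in IgG (20.4 against 7.72 CPM). CTSC followed with 1.29, from 56.7, 53.8 and 53.3 CPM in siTDP43 IP, and GLA with 1.04, from 229, 226 and 215 CPM in siTDP43 IP against 60, 62.4 and 60.6 CPM in WT IP. All 3 had higher IP levels in every siTDP43 library than in any WT library.

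Lower in siTDP43 were GUSB with -1.61 (SE 0.17, adjusted p 1.47e-10), MAN2B1 with -1.60 (SE 0.24, adjusted p 3.85e-07) and GAA with -1.47 (SE 0.16, adjusted p 2.10e-10). GUSB was at 51.6, 47.9 and 52.3 CPM in WT IP, several times its siTDP43 IP level. MAN2B1 had 6.84, 5.06 and 4.73 CPM in siTDP43 IP. LAMP2 had -0.63 and CD63 0.40, the latter at 0.11 with total count scaling (adjusted p 0.226), while CTSB (-0.21), SCARB2 (-0.26), CTSD (0.14) and PSAP (-0.037) did not pass. CTSB and SCARB2 passed with DESeq2 and with total count scaling.

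The change of IP over IgG uses the same IP libraries, so both sets of values stand side by side here and are not independent. It was higher in siTDP43 for 17 members and lower for 11, against 34.9% and 25.9% of all genes, with medians of 0.55 and 0.24. All 5 lipid hydrolases and activators were among the higher members, and 4 of the 5 with the GC trend removed, with DESeq2 or with its size factors. SMPD1, 1 of the 5, had no count in siTDP43 IgG, so its change is only known as at least 1.08 on the log2 scale. TPP1 was higher by at least 3.95 on the log2 scale, NEU1 by 2.97 (SE 0.21, adjusted p 2.70e-15) and GLB1, beta-galactosidase, by 2.43 (SE 0.24, adjusted p 2.01e-11). GLB1 had 15.5, 16.4 and 13.2 CPM in WT IP, 32.8 and 25.9 CPM in WT IgG, 23.7, 35.6 and 30.4 CPM in siTDP43 IP, and 11, 10.5 and 10.7 CPM in siTDP43 IgG. For GLB1, as for NEU1 at 29.9, 32.3 and 28.7 CPM in WT IP and 64.4 and 54.3 CPM in WT IgG, IP lay below IgG in WT and above it in siTDP43.

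CTSB was higher by 2.22 (adjusted p 1.19e-15), with 38.9, 30.4 and 42 CPM in siTDP43 IgG, a group that overlapped its IP. Lower in siTDP43 were GAA with -3.35 (SE 0.19, adjusted p 6.04e-18), MAN2B1 with -3.14 (SE 0.39, adjusted p 7.40e-09) and LAMP1. LAMP2 had 87.7 and 77.2 CPM in WT IgG and 51.4, 57.1 and 69 CPM in siTDP43 IgG, a change of 1.07 that was -0.15 (adjusted p 0.326) with the GC trend removed. CD63, at 678, 587 and 588 CPM in siTDP43 IP and 446, 459 and 400 CPM in siTDP43 IgG, had -0.94, and SCARB2 had -0.55. CTSA had no IgG count in either genotype, so its change over IgG has no value.

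Other members changed place between IP and IgG, and their levels are given for each library kind. HEXA had 37, 36.2 and 39.4 CPM in WT IP, 14 and 12.6 CPM in WT IgG, 77, 67 and 77.4 CPM in siTDP43 IP, and 95.8, 86.2 and 100 CPM in siTDP43 IgG. ATP6V1H had 20.1, 19.2 and 13.1 CPM in WT IP, 7.18 and 4.94 CPM in WT IgG, 56.6, 63.6 and 58.5 CPM in siTDP43 IP, and 91, 84.2 and 79 CPM in siTDP43 IgG. For both, IP and IgG were each higher in siTDP43, and IgG went from below IP to above it. LIPA had 24.9, 25.9 and 26.1 CPM in WT IP, 50 and 45.5 CPM in WT IgG, and 22.4, 17 and 20.6 CPM in siTDP43 IgG, so that its IgG level was lower in siTDP43 while its IP level was higher. Mean input levels were higher in siTDP43 too, at 186 against 102 CPM for HEXA and 88.2 against 33.6 CPM for ATP6V1H. For LIPA they were 217.2 against 101.5 CPM.

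The pump members differed among themselves. ATP6V1H changed by 0.37 in IP over input (adjusted p 0.0367) and by -2.03 over IgG, whereas ATP6V1A changed by -0.51 over input (adjusted p 0.00838) and by 0.92 over IgG (adjusted p 0.00175). ATP6AP1 had 164, 155 and 160 CPM in WT IP, close to its WT input of 164, 162 and 163 CPM, and 130, 108 and 127 CPM in siTDP43 IP against 299, 293 and 283 CPM in siTDP43 input. Its IP over input changed by -1.23 between the genotypes (SE 0.097, adjusted p 7.84e-14), whereas its IP over IgG changed by 0.55 (adjusted p 0.000186). PPT1 had 90.7, 104 and 118 CPM in WT IP and 297, 299 and 282 CPM in siTDP43 IP, and the changes were 0.85 over input and 0.41 over IgG. CLN3 had 31 and 34.4 CPM in WT IgG and 9.18, 4.86 and 9.96 CPM in siTDP43 IgG, and its IP over IgG changed by 1.77, whereas its IP over input differed by -0.29 with an adjusted p of 0.138. LGMN, with 85.5, 89.4 and 93.4 CPM in WT IP and 43.7, 35 and 34.1 CPM in siTDP43 IP, had changes of -0.59 over input and 0.51 over IgG. MCOLN1 stayed between 9.22 and 24.2 CPM in all libraries.

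The other lysosomal genes were called in both directions in every one of these comparisons. In WT IP over input, 19 of 101 were higher and 28 lower, against 30.2% and 27.3% of all genes, with RRAGC, a Rag GTPase that recruits mTORC1, at 3.10 and FUCA1, a fucosidase, at -3.27. In siTDP43 IP over input, 17 of 96 were higher and 28 lower, against 26.8% and 25.4%, with RRAGC at 3.79, CLCN7, a chloride-proton exchanger of the lysosomal membrane, at 3.44 and M6PR, a mannose 6-phosphate receptor, at -4.78. Over IgG, 32 were higher and 16 lower in WT, against 35.2% and 17.8% of all genes, and 39 higher and 17 lower in siTDP43, against 34.0% and 15.0%, where CTSL1, cathepsin L, stood at 5.46. IgG against input gave 22 higher and 46 lower in WT, against 24.4% and 36.6% of all genes, and 19 and 48 in siTDP43, against 24.7% and 41.0%. The change of IP over input between the genotypes was higher for 36 and lower for 40 of 101, against 31.5% and 36.3% of all genes, with TSC2, an inhibitor of mTORC1 signalling, at -2.92 and NPC1, which exports cholesterol from lysosomes, at -2.56. Over IgG it was higher for 47 and lower for 35, against 34.9% and 25.9%.

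A transcript was called ac4C(+) here where IP passed against both input and IgG in the edgeR fits. The study used this term under its own rule, with ratios of FPKM + 1, so its gene lists can differ. In WT, LAMP1 and SMPD1 met the rule used here, 2 of 31 members (6.45%) where 15.6% of all genes did. In siTDP43, CTSF and SMPD1 met it, again 6.45% of members, against 10.3% of all genes. SMPD1 was the member with the call in both genotypes. In siTDP43 its call rested on low counts, with 24 to 64 per input library and none in the IgG libraries, the shallowest group. There IP was at least 9.52-fold above IgG, computed against 3 counts per library. CTSF passed over IgG in both genotypes (1.04 in WT, 1.03 in siTDP43) and over input in siTDP43 only. LAMP1 lost the call in siTDP43 on its IgG side alone, and with the GC trend removed it also missed 2-fold over IgG in WT.

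The members differed in base composition, and the changes in the inputs and in WT IP over input moved with it most. The GC content of their exons had a median of 53.2%, from 35.7% in LAMP2 to 64.9% in GAA, against 49.2% over the genes tested in the inputs, and their exon length had a median of 2540 against 3088 bases. Across the 31 members, Spearman's rho between GC content and log2 change was -0.51 for the inputs and 0.57 for WT IP over input, and over all genes it was -0.32 and 0.36. In the other comparisons rho across members was weaker, from -0.30 (change of IP over IgG) to 0.39 (siTDP43 IgG over input). It was -0.13 for the change of IP over input. These are descriptions across genes of shared libraries. With a split at 53.8%, the median over all 32 members with the untested CTSZ included, 15 of the tested members lay above it, of which 5 were higher and 8 lower in siTDP43 input, and of the other 16, 10 were higher and 5 lower. In WT IP over input, the 15 GC-rich members held all 3 of the higher ones and 3 of the lower, and the other 16 held 10 of the lower. Over all genes, 38.6% were higher and 40.6% lower in the inputs, and 30.2% and 27.3% in WT IP over input. The part of GC content in these changes was not tested beyond the GC-trend alternative.

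**Figure D5:**
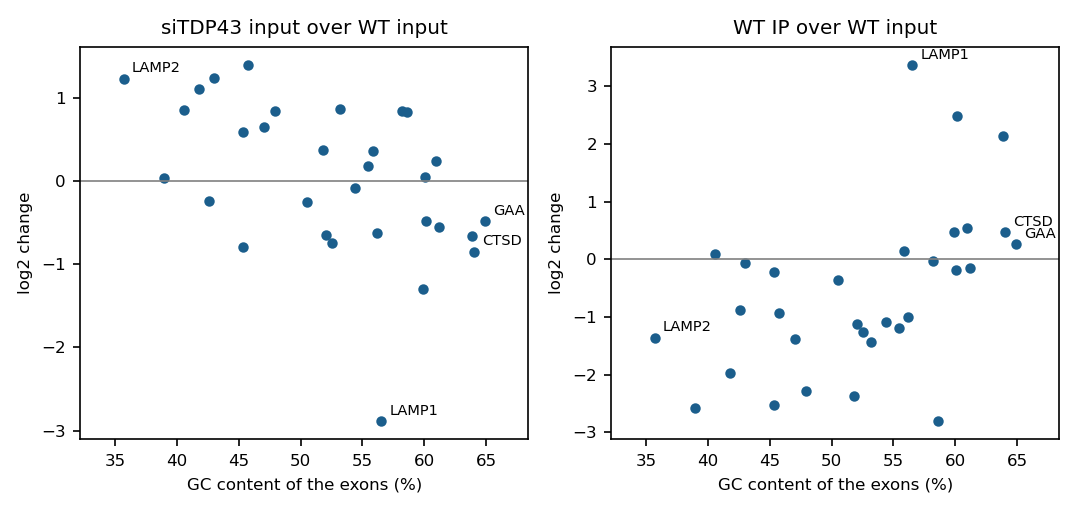
GC content of the exons (percent) against the log2 change of the 31 tested members, in siTDP43 input over WT input (left) and WT IP over WT input (right), each point 1 gene. The GC-poor LAMP2 lies high on the left and below 0 on the right, whereas LAMP1 at 56.5% GC is the lowest point on the left and the highest on the right.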

How the data were processed

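Libraries were made by Smart-seq2 from poly(A) RNA. Per the submitters' processing notes and the study's methods, the authors used Trim Galore 0.6.7, STAR 2.7.10a on hg19 and, for reads with a unique position, featureCounts 2.0.2. The deposited table holds raw counts, with no normalization, beside the length of each gene. The notes list another genome, but 93.0% of the members' 796 exon edges were edges in the GRCh37 annotation. Annotation release, strand setting and handling of pairs are not given in the sources used here. From 81.3 to 95.9% of counts between 1 and 20 were even, so mates appear to have been counted singly. NEU1 is listed on 8 sequences, and its length was taken from chromosome 6 alone.

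Counts were tested over the whole table in R 4.3.3 with edgeR 4.0.16 (quasi-likelihood F test, two-sided, TMM, filterByExpr with a minimum count of 10, Benjamini-Hochberg over all genes tested), in the 6 inputs, the 8 WT libraries, the 9 siTDP43 libraries, or all 17 for the interactions. Enrichment needed an adjusted p under 0.05 and a change above 2-fold, other comparisons an adjusted p under 0.05. Where every library of a group held at most 3 counts, folds are bounds against 3 counts per library. Mates appear to have been counted singly, so 3 counts are fewer than 3 read pairs. Folds given as at least a value hold against this floor and would be smaller against a higher one. Reads carried no molecular identifiers in the sources used here, so the floor allows for part of the counting error only. Fits were tested on simulated data.

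The members, lists and tests were chosen with earlier results of these data known. Values per library were given for LAMP1, LAMP2, CD63, SCARB2, CTSD, CTSB, PSAP and GAA, and in each comparison for the 3 largest rises and falls among called members, given that no libraries overlapped and the mean count reached 100. For the interactions the overlap condition was not applied. Values of other members (among them SMPD1, PPT1, CLN3, LGMN, HEXA and ATP6AP1 where the rule did not name them) were added after their results were seen. Alternatives were DESeq2 1.42.0 (Wald test and its size factors), limma 3.58.1 on log2(FPKM + 1), scaling by total counts, keeping all genes, keeping genes whose mean count reached 50, halved counts, subtraction of each library's smooth trend with exon GC, a replicate block, 1 fit of all libraries, and leaving out each library.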

Additional observations from a re-analysis of the deposited data

Results flagged for a closer look

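For 11 values the change of IP over a control had opposite signs in the 2 genotypes, each side with an edgeR adjusted p under 0.05, and the interaction passed as well. Over input these were GAA, with 0.26 in WT and -1.05 in siTDP43 (change -1.47), and MANBA, a beta-mannosidase, with -0.22 in WT and 0.96 in siTDP43 (change 1.04, adjusted p 0.000861). The opposite signs of GAA depended on the GC trend: with it removed, GAA in WT IP over input was -1.34, negative as in siTDP43.

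Over IgG, 4 members went from above IgG in WT to below it in siTDP43. LAMP1 went from 1.38 to -0.81 (change -2.13), GAA from 1.20 to -2.21 (change -3.35), HEXA from 1.48 to -0.43 (change -1.85) and ATP6V1H from 1.505 to -0.58 (change -2.03). The other 5 members went from below IgG to above it. LAMP2 went from -0.37 to 0.64 (change 1.07), GLB1 from -0.98 to 1.40 (change 2.43), NEU1 from -0.99 to 1.92 (change 2.97), LIPA from -0.92 to 1.33 (change 2.30) and ASAH1 from -0.61 to 0.65 (change 1.32). Several of the single sides were within 2-fold. With the GC trend removed, LAMP1 kept its signs (0.58 in WT and -1.25 in siTDP43). GAA was then at -0.070 in WT IP over IgG, and LAMP2 turned to -0.44 in siTDP43 IP over IgG. The change of LAMP2 was then -0.15 (edgeR adjusted p 0.326). WT IgG had 2 libraries, and siTDP43 IgG was the shallowest group.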

How the results depend on the processing

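The number of members called stayed within 1.5 times of the reported one in all 9 comparisons and under all alternatives. The GC trend mattered most. Removing it took LAMP1 in WT IP over IgG to 0.58, under 2-fold, and in siTDP43 IP over IgG to -1.25, past 2-fold. It turned the sign of CTSD (0.067), GAA (0.53) and PSAP (0.074) in the inputs, of CD63 (-0.22), CTSD (-0.94) and GAA (-1.34) in WT IP over input, of CTSD (-0.75) and GAA (-0.070) in WT IP over IgG, and of CTSD (-0.20), PSAP (0.31) and SCARB2 (0.34) in WT IgG over input. In siTDP43 it turned CTSD (-0.60) in IP over input, CD63 (-0.017), CTSB (-0.53), CTSD (-0.28) and LAMP2 (-0.44) in IP over IgG, and CTSD (-0.32) and GAA (-0.15) in IgG over input. It turned CTSB (0.25) and PSAP (0.46) in the change over input, and CTSD (0.29) and LAMP2 (-0.15) in the change over IgG. The cause was not tested.

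Total count scaling moved the median of all genes most in siTDP43 IgG over input, from -0.58 to -1.13. It took the change of LAMP1 over input to 0.35 and turned that of CTSD to -0.16, and limma on log2(FPKM + 1) turned them to -0.73 and -0.17. In siTDP43 IgG over input, total count scaling turned CD63 to -0.29 and SCARB2 to -0.40, limma to -0.29 and -0.36, and the fit of all libraries SCARB2 to -0.075. Values near 0 also turned: CTSD in WT IgG over input under total count scaling (-0.0084), no filter (-0.024), limma (-0.0095), the fit of all libraries (-0.0094), and with single libraries left out (-0.073 to 0.091, below 0 without WT input replicate 3 or WT IgG replicate 2). CTSB in siTDP43 IP over IgG turned when genes needed a mean count of 50 (-0.011), and ranged from -0.12 to 0.13 with single libraries left out, below 0 without IP replicate 1 or IgG replicate 2. CTSD there ranged from -0.094 to 0.12, below 0 without IP replicate 1. In the change over input, PSAP ranged from -0.084 to 0.0037, above 0 without siTDP43 input replicate 1, and CTSD from -0.013 to 0.22, below 0 without siTDP43 IP replicate 1.

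Leaving out single libraries, LAMP1 ranged from -3.34 to -2.64 in the inputs and from 0.40 to 1.10 in the change over input, where it lost the call without siTDP43 input replicate 2 (0.54) or 3 (0.40). The replicate numbers did not pair the libraries (40 correlations of residuals, -0.021 to 0.027), and with the number as a replicate block LAMP1 in the inputs was -2.93 and 28 members were called there, as without it, and the block moved no count of called members by over 1.5 times.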
